A study of Macaca mulatta with 28 samples.

Results

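The mitochondrial ribosomal proteins are described here as the genes of the deposited gene table whose symbols begin with MRPL or MRPS followed by a number. All 69 such symbols (42 MRPL and 27 MRPS) reached 10 normalized reads in at least 5 libraries, and they made up 69 of the 13022 genes that were tested and of the 15521 in the table. Membership was set by the symbol and this low minimum, but the family was chosen with earlier results of these data known. MRPL13 was known from earlier results of these data to be lower in heavy drinkers, so its values are given as a description and add no independent support.

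RNA came from a dissected block that held the amygdala's central nucleus (CeA), which lies at the meeting point of stress and reward circuits, in 28 male rhesus macaques. Each animal gave 1 library. All 28 were accustomed to a 4% (w/v) ethanol solution, which was then freely available for 22 hours a day over more than 12 months, next to water and meals, and no animal without ethanol is among them. By intake, the labels class 10 animals as low (LD), 5 as binge (BD), 7 as heavy (HD) and 6 as very heavy (VHD) drinkers. A BD animal drank 2 g/kg or more on 55% of days or more, with a blood level of 80 mg/dl recorded in each year. An HD animal drank 3 g/kg or more on 20% of days or more. A VHD animal had a daily average above 3 g/kg and went past 4 g/kg on 10% or more of its open access days. LD animals fell under none of these definitions. Below, HD and VHD together are called heavy (13 animals) and LD and BD together low (15 animals).

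The animals belonged to 4 cohorts of different mean age. At induction and after the open access, respectively, the labels give 8.24 and 9.98 years for cohort 4, 5.63 and 7.15 for cohort 5, 4.18 and 5.7 for cohort 7a, and 5.69 and 7.18 for cohort 7b. Cohort 4 held 4 LD, 3 BD and 1 HD animals, and cohort 5 held 3 HD and 4 VHD animals. Cohort 7a held 3 LD, 1 BD, 2 HD and 2 VHD animals, and cohort 7b held 3 LD, 1 BD and 1 HD animals. Cohort 5 had no low animal, so with cohort as a term the contrast of heavy and low rests on the 1, 4 and 1 heavy animals of cohorts 4, 7a and 7b. Cohort and age cannot be told apart.

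Libraries held 1910514 to 25928489 reads over exons (median 16444833). The members took 5829 to 81855 of them, 0.231% to 0.316% of a library, and 3 reads corresponded to 1.82 to 24.1 normalized reads. The 3 shallowest libraries, BD replicate 1, LD replicate 1 and HD replicate 1, all came from cohort 4. The GABAergic markers GAD1, GAD2 and SLC32A1, typical of CeA neurons, summed to between 7169 and 23414 normalized reads in every library, while the cholinergic markers CHAT, SLC5A7 and SLC18A3 ranged from 27.1 to 14178, so the blocks differed in these markers. Each p-value for a gene or a single exon weighs a difference against the spread between animals, and the tests of relative exon use pool that spread over a gene's exons. In such bulk tissue fewer cells of a type and less RNA per cell cannot be told apart.

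Mitochondria carry their own ribosome, which makes the few core subunits of the respiratory chain and the ATP synthase that the mitochondrial genome still encodes. Its ribosomal RNAs come from mitochondrial DNA, whereas all of its proteins are encoded in the nucleus, made in the cytosol and imported. The large subunit forms the peptide bond and the small subunit reads the messenger RNA, and in both some proteins have bacterial relatives while others exist only in mitochondria. Neurons depend on the respiratory chain for most of the ATP that ion pumping and transmission consume.

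By role, the gene table held 26 large subunit proteins with a bacterial counterpart and 18 found only in mitochondria. For the small subunit the numbers were 15 and 9. MRPS30 and MRPS18A carry a small subunit name but sit in the large subunit and were counted there. MRPS36 was left out of these 4 groups, because the protein is known as a component of the alpha-ketoglutarate dehydrogenase complex. MRPL4, MRPL20, MRPL21, MRPL33, MRPL45, MRPL57, MRPL58, MRPS6 and MRPS31 were not analysed here under those symbols.

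Levels between genes were compared as normalized reads per kilobase of exon. The members had a median level of 421 per kilobase (quartiles 327 and 595), against 160 for all genes tested, and 66 of the 69 lay above the latter. Cytosolic ribosomal proteins had a median level of 3908 and the nuclear subunits of oxidative phosphorylation 2165 per kilobase. Among the roles, the median level was highest for small subunit proteins found only in mitochondria, at 618 per kilobase, and it was 458 for their large subunit counterparts. Proteins with bacterial relatives had median levels of 372 in the large and 361 in the small subunit.

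**Figure D1:**
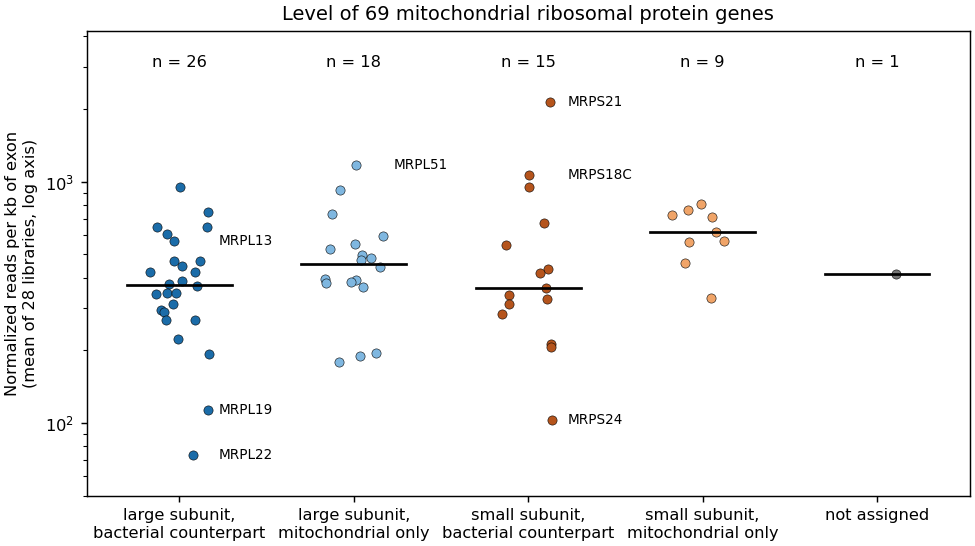
Each point is 1 member, plotted as its mean level over 28 libraries in normalized reads per kilobase of exon on a log axis, with members grouped by role and the bar at each group's median. MRPS21 stands highest at 2137 per kilobase, and MRPL22 lowest at 73.9.

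The highest level belonged to MRPS21, a small subunit protein of the bacterial bS21 family, at 2137 ± 367 normalized reads per kilobase (SD, n = 28). MRPL51 followed at 1175 ± 140, MRPS18C at 1070 ± 141, and MRPL27, whose bacterial relative reaches towards the peptidyl transferase centre, at 951 ± 122. MRPS15 had a level of 951 ± 162 and MRPL48 of 921 ± 115 per kilobase, so that these last 3 members differed by less than their spread between animals. At the low end were MRPL44, a protein with an RNase III-like fold, at 179 ± 24.8, MRPL19 at 113 ± 9.37, MRPS24 at 102 ± 38.9 and MRPL22, a lining protein of the exit tunnel, at 73.9 ± 13.2 per kilobase. For 2 of these the listed exon length matters. MRPL19 was listed with 8010 bases of exon and 904 normalized reads, and MRPS24 with 90 bases and 9.21 normalized reads, which in the shallowest library is under the worth of 3 reads.

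Between animals the members varied less than genes in general and about as much as other ribosomal and respiratory chain genes. The SD of log2(value + 1) after removing cohort means had a median of 0.198 over the members, 0.207 over cytosolic ribosomal proteins, 0.208 over oxidative phosphorylation genes and 0.260 over all genes tested, where counting alone would give the members a median SD of 0.0709. The steadiest were the small subunit proteins MRPS16 (SD 0.107) and MRPS9 (0.115) and the large subunit proteins MRPL19 (0.121) and MRPL42 (0.122). The widest spread belonged to MRPS24 (0.540, with a counting SD of 0.627), MRPL54 (0.465), MRPL52 (0.347) and MRPL41 (0.321). For MRPS24 the spread therefore did not exceed that of counting.

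Members tended to be high or low in the same libraries. Over the 28 libraries, which share no animal but differ in depth and dissection, the Pearson correlation between 2 members had a median of 0.37 across 2346 pairs, and 86.4% of pairs were above 0. The same median was 0.61 among cytosolic ribosomal proteins, 0.62 among oxidative phosphorylation genes and 0.0035 among all genes tested. MRPL40, MRPS15 and MRPS21 followed the mean of the other members most closely, with correlations of 0.88, 0.87 and 0.86. MRPL39, MRPS5, MRPL54 and MRPL19 ran against it, with correlations of -0.48, -0.39, -0.25 and -0.13. Removing cohort means left the median at 0.39.

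To see which libraries carried this, each member's log2 value was centred on its mean over the 28 libraries and the 69 deviations were averaged. The average was lowest in LD replicate 1, at -0.30, where 6 of 69 members lay above their own mean, and next in HD replicate 1, at -0.22, with 8 above. It was highest in LD replicate 3, at 0.29 with 65 members above, and in BD replicate 1, at 0.17 with 49 above. These 4 libraries all belong to cohort 4, whose SD of the average was 0.200, against 0.0614, 0.0630 and 0.0625 in cohorts 5, 7a and 7b. Without its 3 shallowest libraries cohort 4 still had an SD of 0.120. Animals of 1 cohort and of 1 drinking category thus stood at both ends of the range.

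The average moved with transcript length. Members are short, with a median of 1117 bases of exon against 2773 for all genes, and 49 of the 69 belonged to the 2606 genes with the least exon sequence (59 to 1588 bases, the shortest 20.0% of genes). The median deviation of all these short genes was -0.23 in LD replicate 1, -0.14 in HD replicate 1, 0.20 in LD replicate 3 and 0.17 in BD replicate 1, low and high in the same libraries as the members. Fits with each library's trend on length removed are given with each comparison.

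**Figure D2:**
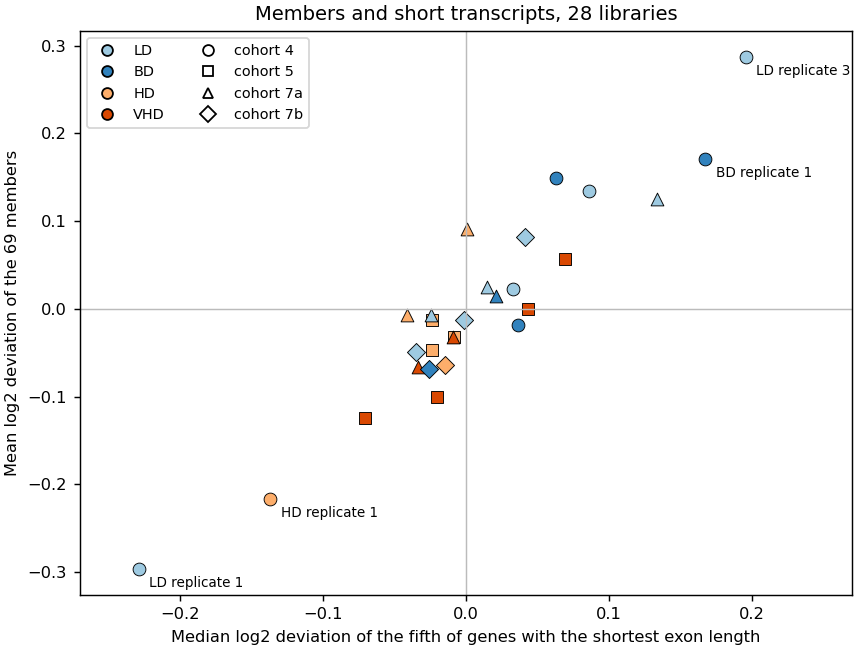
Each point is 1 of 28 libraries, coloured by drinking category and shaped by cohort. The horizontal axis is the median log2 deviation of the 2606 genes with the least exon sequence and the vertical axis the mean log2 deviation of the 69 members; LD replicate 1 lies lowest (-0.30) and LD replicate 3 highest (0.29).

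By category, the average deviation was 0.03 ± 0.151 in the 10 LD animals (SD) and 0.05 ± 0.105 in the 5 BD animals, and it was -0.04 ± 0.0920 for HD (n = 7) and -0.04 ± 0.0670 for VHD (n = 6). It ran from -0.30 to 0.29 in low and from -0.22 to 0.09 in heavy animals, so the 13 heavy animals lay within the range of the 15 low ones. The difference in means was smaller than the SD of the low group.

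In heavy against low drinkers, most members lay slightly lower in the heavy animals and no single member passed the threshold. The fitted fold was below 1 for 59 of 69 members, against 50.0% of all genes tested, and the median log2 fold was -0.11, against 0.00 for all genes. By limma, 0 of 69 members had an adjusted p under 0.05, as had 0.0% of all genes, and edgeR and DESeq2 on recovered reads also called 0 members. At an unadjusted p under 0.05, limma had 6 members, all lower, where 2.27% of all genes were lower and 1.9% higher at that level. With edgeR and DESeq2 there were 6 each, against 4.49% and 4.83% of all genes.

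The shift was spread over both subunits. In the large subunit, 23 of 26 proteins with a bacterial counterpart lay below 1-fold with a median log2 fold of -0.12, and 13 of 18 found only in mitochondria, with a median of -0.07. In the small subunit the counts were 14 of 15 with a median of -0.11 and 8 of 9 with a median of -0.12. None of these 4 groups held a member past the threshold by limma, and they held 3, 2, 0 and 1 members at an unadjusted p under 0.05.

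**Figure D3:**
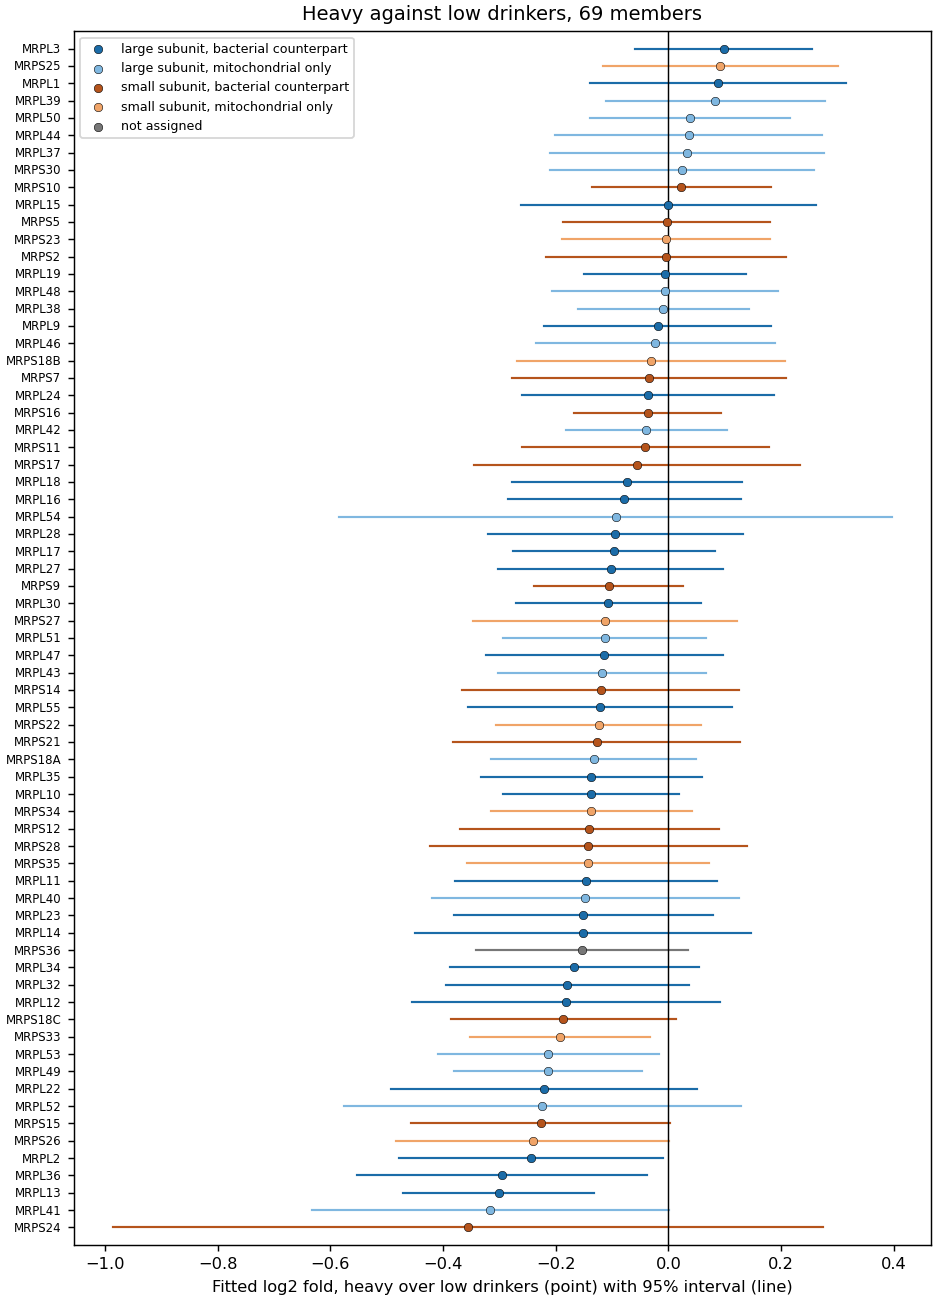
Fitted log2 fold of heavy over low drinkers with cohort as a term for each of the 69 members, ordered by size and coloured by role; lines are 95% intervals. Of the 69 points, 59 lie left of 0, and the interval excludes 0 for 6 of them before adjustment.

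MRPL13, a large subunit protein related to bacterial uL13, had the smallest p among the members. Its normalized reads in LD animals ran from 460 over a median of 537 to 670, and BD animals had 500, 551, 571, 609 and 633. In HD animals they ran from 438 over 463 to 545, and in VHD animals from 401 over 453 to 532. The heavy and low ranges overlapped between 460 and 545. Each of the 13 heavy animals lay under the mean of the low ones, a count that does not account for cohort. Group means were 471 ± 43.5 in heavy (SD, n = 13) and 561 ± 66.6 in low animals (n = 15), and these values rest on 79 to 1043 reads a library. The fitted fold was 0.811 (95% interval 0.722 to 0.913), with an unadjusted p of 0.0011 and an adjusted p of 0.998 by limma over all genes.

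Cohort by cohort, MRPL13 separated the groups in cohorts 4 and 7a and not in 7b. In cohort 7a the 4 heavy animals had 424 to 459 normalized reads and the 4 low animals 489 to 609. The single heavy animal of cohort 4, at 443, lay below the 7 low animals, whose lowest value was 492. The heavy animal of cohort 7b, at 463, lay above 1 of the 4 low animals (460). In cohort 5, with no low animal for comparison, its values reached 545.

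MRPL13 also lay lower than the other members did. Its log2 deviation minus the mean deviation of the other members averaged -0.09 ± 0.134 in heavy (SD, n = 13) and 0.08 ± 0.142 in low animals (n = 15). The heavy minus low difference of this measure was -0.12 in cohort 4, -0.27 in cohort 7a and -0.14 in cohort 7b. This measure was chosen after the values were seen and was not tested.

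**Figure D4:**
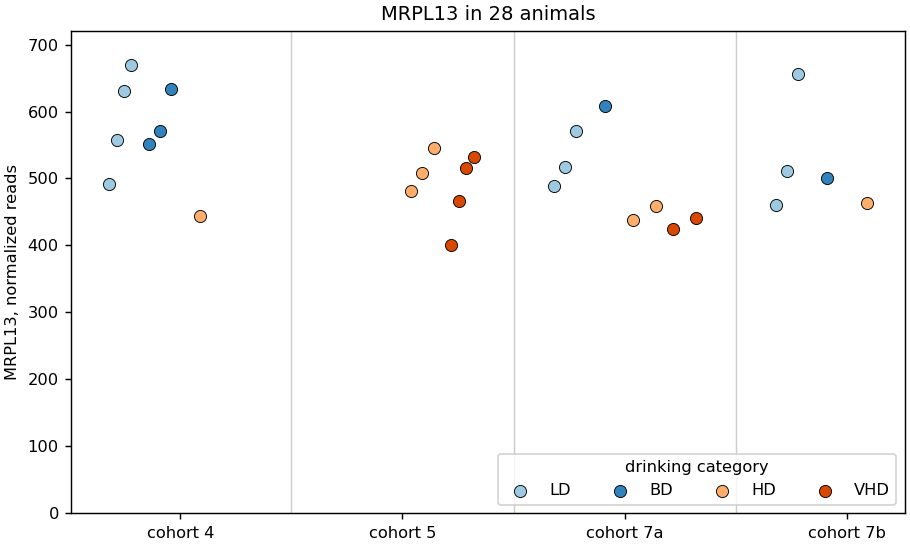
Normalized reads of MRPL13 in each of the 28 animals, by cohort (horizontal axis) and drinking category (colour). In cohort 7a the 4 heavy animals (HD and VHD, 424 to 459) lie below the 4 low ones (489 to 609), while cohort 5 holds HD and VHD animals only.

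The exon table lists MRPL13 as 7 exons on chromosome 8 between 119358814 and 119408390, in a genome build not given in the sources used here. In order of position, their fitted folds in heavy over low were 0.880, 0.749, 0.787, 0.652, 0.824, 0.863 and 1.05. The last exon had a mean of 8.71 normalized reads and an interval of 0.365 to 2.99, so only the 6 better covered exons bear on the direction, and all of these lay below 1. By limma over all exons the adjusted p was 1.0 for each.

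MRPL49, a large subunit protein found only in mitochondria, had 831 to 1330 normalized reads in heavy animals (median 1122) and 974 to 1349 in low animals (median 1200). Its ranges overlapped widely, and 12 of 13 heavy animals lay below the low mean, a count that does not account for cohort. The fitted fold was 0.862 (95% interval 0.768 to 0.968, unadjusted p = 0.0137 by limma).

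MRPL36, the relative of the small zinc-binding bacterial protein bL36, had 123 to 184 normalized reads in heavy animals (median 144) and 144 to 257 in low animals (median 166). The fitted fold was 0.815 (0.682 to 0.975, unadjusted p = 0.0265). Its highest low animals stood well above every heavy one, while the medians were closer.

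MRPS33, a small subunit protein found only in mitochondria, had 466 to 745 normalized reads in heavy animals (median 642) and 586 to 883 in low animals (median 674), a fitted fold of 0.875 (0.783 to 0.978, unadjusted p = 0.0205). MRPL53 had a fitted fold of 0.863 (0.753 to 0.989). For MRPL2, whose bacterial relative lies next to the peptidyl transferase centre, it was 0.845 (0.718 to 0.993). The adjusted p was 0.998 by limma for each of these 6 members.

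The 6 highest-ranked members in the other direction were all short of an unadjusted p of 0.05. MRPL3, the relative of bacterial uL3, had a fitted fold of 1.07 (0.960 to 1.19), MRPS25 of 1.07 (0.922 to 1.23) and MRPL39 of 1.06 (0.926 to 1.21). MRPL1, a protein of the mobile L1 stalk, had 1.06 (0.908 to 1.24), MRPL50 1.03 (0.909 to 1.16) and MRPL44 1.03 (0.870 to 1.21).

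Within single cohorts the size of the shift differed. In cohort 4, with 1 heavy animal (HD replicate 1) against 7 low ones, 64 of 69 members lay lower in the heavy animal, with a median log2 difference of -0.27, where 49.0% of all genes lay lower. In cohort 7a, with 4 against 4, 44 members lay lower (median -0.05; 53.3% of all genes), and in cohort 7b, with 1 against 4, 47 (median -0.08; 46.4%). In each of the 3 cohorts 30 of 69 members lay lower, against 10.9% of all genes, and 0 lay higher in each, against 11.3%. Cohorts 4 and 7b rest on 1 heavy animal each and members moved together across libraries, so the 30 are not separate observations. A test of the heavy by cohort interaction in limma called 0 members and 0.0% of all genes. At an unadjusted p under 0.05 it had 1 member, MRPS24, and 4.67% of all genes.

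**Figure D5:**
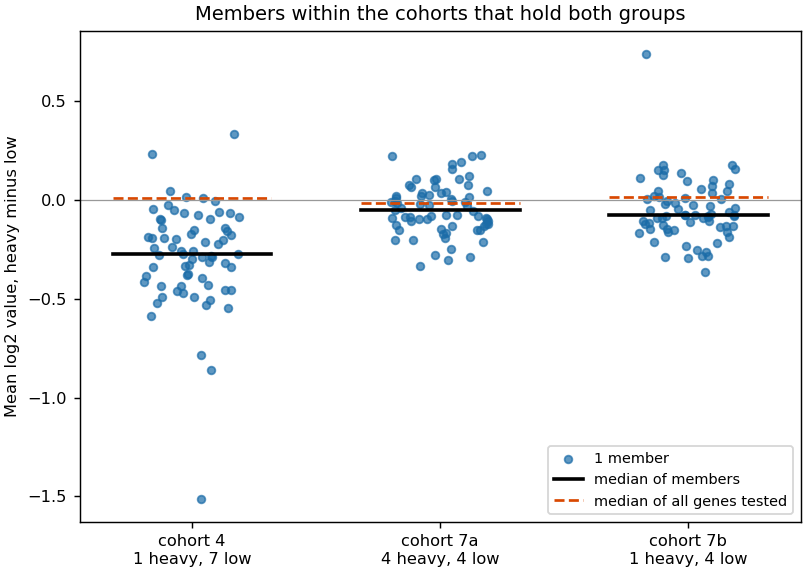
Difference in mean log2 value, heavy minus low, for each of the 69 members within the 3 cohorts that hold both groups; the black bar is the members' median and the dashed line the median of all genes tested. The members' median is -0.27 in cohort 4, -0.05 in cohort 7a and -0.08 in cohort 7b, and the point farthest from 0 in cohorts 4 and 7b is MRPS24.

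In cohort 7a, the cohort with most animals on both sides, 2 members had every heavy animal below every low one, MRPL13 and MRPS33, against 2.04% of all genes. Likewise 2 members, MRPL3 and MRPL50, had every heavy animal above every low one, against 1.51% of all genes. MRPL3 had 921 to 1109 normalized reads in the 4 heavy and 807 to 903 in the 4 low animals. MRPL50, found only in mitochondria, had 202 to 228 and 172 to 202. These counts are of the same size in both directions.

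HD replicate 1 carried much of the members' shift. Without that library 46 of 69 members lay below 1-fold, the median log2 fold was -0.05 and 1 member, MRPL13, kept an unadjusted p under 0.05 (0.828-fold, p = 0.00838, adjusted p = 1.0 by limma). The fold of MRPL49 was then 0.923, that of MRPL53 0.927 and that of MRPL2 0.897. Leaving out the 3 shallowest libraries gave the same folds, since cohort 4 had no heavy animal in either case. The 6 members at an unadjusted p under 0.05 became 13 without LD replicate 1, 10 without LD replicate 5 and 3 without HD replicate 6. With each library's trend on exon length removed, 48 of 69 members lay below 1-fold with a median of -0.06, against 54.2% and -0.01 for all genes. In that fit 2 members had an unadjusted p under 0.05. Over all genes the share at that level was 4.18% in the main fit, 2.18% without HD replicate 1 and 3.41% with the length trend removed. For other single libraries left out, here and below, this share is not given, so those counts have no comparison. Of the 2606 short genes as a whole, 69.3% lay below 1-fold with a median log2 fold of -0.07, and of the 49 members among them 44 did, with a median of -0.12. Of the 2603 genes next in length the median was -0.03, and it was -0.07 for the 14 members among these.

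The GABAergic markers went the same way, though none passed the adjusted threshold by limma. All 3 lay lower in heavy drinkers, with a median log2 fold of -0.54, and GAD2 (0.688-fold) and SLC32A1 (0.623-fold) had an unadjusted p under 0.05 by limma. Their part in the members' shift was not tested. The summed pan-neuronal markers ran from 100233 to 182607 normalized reads in low and from 116004 to 191472 in heavy animals, with 5 of 9 genes below 1-fold. Summed myelin markers ran from 40027 to 86393 in low and from 43905 to 116719 in heavy animals, with 5 of 7 genes below 1-fold (median -0.06). All 3 cholinergic markers had a fitted fold below 1 in heavy drinkers (median log2 fold -1.26). Their median sum without the cohort term was 665 normalized reads in heavy and 496 in low animals. In VHD against LD animals these 3 lay higher. The 4 cortical and basolateral glutamatergic markers tested lay higher (median 0.67). Neither list had a gene at an unadjusted p under 0.05 by limma, and their part in the members' shift was not tested. With neuronal, astrocyte and myelin marker scores as covariates, 58 of 69 members lay below 1-fold in heavy drinkers, the median log2 fold was -0.12, and 12 had an unadjusted p under 0.05. Over all genes that share was 4.18% without and 9.79% with the covariates.

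In VHD against LD animals, which compares the extremes of intake, 56 of 69 members lay below 1-fold, against 47.5% of all genes, with a median log2 fold of -0.10 (all genes 0.01). By limma 0 members passed the threshold (0.0% of all genes), as with edgeR and DESeq2, and 4 had an unadjusted p under 0.05, all lower (4.37% of all genes were lower and 4.2% higher at that level). This contrast and those of HD and BD share the LD animals. Only cohort 7a held both LD and VHD animals, 3 and 2 of them. Raw values of LD and VHD animals given below therefore also differ by cohort and age. Without HD replicate 1, which enters through the cohort term, 46 of 69 lay below and the median was -0.06. With the length trend removed 56 lay below and the median was -0.09, against 53.4% and -0.02 for all genes. The 4 members at an unadjusted p under 0.05 became 11 without LD replicate 1, 7 without HD replicate 7, 7 with marker scores as covariates and 8 without a cohort term. The share of all genes at that level was 8.57% in the main fit, 6.44% with marker scores and 16.1% without a cohort term.

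Cell type markers differed in the same contrast without passing the adjusted threshold. The 3 GABAergic markers lay lower in VHD animals, each at an unadjusted p under 0.05 by limma, with a median log2 fold of -0.81. The 7 myelin markers lay higher, with a median of 0.45 and 3 at that level. The 3 cholinergic markers also lay higher, with a median of 1.16 and 0 at that level. With neuronal, astrocyte and myelin scores as covariates 63 of 69 members lay below 1-fold, with a median of -0.13. The part of the GABAergic and cholinergic markers was not tested.

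MRPS18C, the small subunit's relative of bacterial bS18, had 444 to 532 normalized reads in VHD animals (median 498) and 447 to 686 in LD animals (median 591). Of its VHD animals 6 of 6 lay below the LD mean, a count that does not account for cohort. The fitted fold was 0.776 (95% interval 0.655 to 0.920, adjusted p = 0.531 by limma). MRPL17, whose bacterial relative lies near the exit of the peptide tunnel, had 460 to 597 in VHD (median 522) and 525 to 741 in LD animals (median 644), with a fitted fold of 0.813 (0.703 to 0.940, adjusted p = 0.531). In both genes the VHD range overlapped the lower part of the LD range. MRPL13 had a fitted fold of 0.785 (0.669 to 0.920, adjusted p = 0.529) and MRPL49 of 0.839 (0.717 to 0.982, adjusted p = 0.576).

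Among members higher in VHD animals, MRPL50 had a fitted fold of 1.11 (0.948 to 1.31), MRPL46 of 1.12 (0.930 to 1.34), MRPL15 of 1.10 (0.859 to 1.40) and MRPL1 of 1.07 (0.865 to 1.33). Each interval includes 1. For MRPL15 and MRPL1 the sign turned with marker scores as covariates, with log2 folds of -0.094 and -0.031.

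The 3 paralogs of the MRPS18 family, which occupy separate sites in the ribosome, can be set side by side. MRPS18A, in the large subunit, had 489 ± 69.2 normalized reads in LD animals (SD, n = 10), 463 ± 30.2 in BD (n = 5), 440 ± 42.7 for HD (n = 7) and 416 ± 40.2 for VHD (n = 6). In the same order MRPS18C had 589 ± 75.02, 514 ± 61.9, 542 ± 63.8 and 490 ± 34.0. MRPS18B, found only in mitochondria, had 600 ± 92.7, 608 ± 84.7, 602 ± 107 and 585 ± 60.3. MRPS18A and MRPS18C had their highest mean in LD and their lowest in VHD animals, while the means of MRPS18B lay within 1 SD of each other. How reads that match several paralogs were counted is not given in the sources used here.

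In HD against LD animals 57 of 69 members lay below 1-fold (52.1% of all genes) with a median log2 fold of -0.08. By limma 0 members passed the threshold (0.0% of all genes), as with edgeR and DESeq2, and 6 were lower and 0 higher at an unadjusted p under 0.05 (2.56% and 1.41% of all genes). The smallest p-values belonged to MRPL13 (0.8291-fold), MRPL36 (0.793-fold) and MRPS33 (0.870-fold), each with an adjusted p of 0.995 by limma. All 7 HD animals lay below the LD mean for MRPL13 and MRPL36, and 5 of 7 for MRPS33, counts that do not account for cohort. The median was -0.03 without HD replicate 1 (44 of 69 below) and -0.03 with the length trend removed (42 below). Without HD replicate 5 it was -0.13 (58 below). Of all genes 49.9% lay below 1-fold with the length trend removed, with a median of 0.0003. The 6 members at an unadjusted p under 0.05 became 1 without HD replicate 1 and 1 with the length trend removed, and 2 with marker scores or without the 3 shallowest libraries. They became 10 without LD replicate 1, and 3 without LD replicate 3, LD replicate 7 or HD replicate 6. Of all genes 3.96% were at that level in the main fit, 3.79% without HD replicate 1 and 3.12% with the length trend removed. With marker scores the share was 4.58%, and without the 3 shallowest libraries 4.64%. In this contrast the 3 cholinergic markers lay lower in HD animals (median log2 fold -2.26, 2 at an unadjusted p under 0.05), as did the 3 GABAergic markers (median -0.53, 1 at that level), and their part in the members' values was not tested.

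In BD against LD animals 28 of 69 members lay below 1-fold (54.0% of all genes), the median log2 fold was 0.03, and limma called 0 members (0.0% of all genes) with 0 at an unadjusted p under 0.05, as did edgeR and DESeq2, where 2.14% of all genes were lower and 1.37% higher by limma at that level. MRPL48 had a fitted fold of 1.14 (0.990 to 1.31), MRPL52 of 1.25 (0.978 to 1.59) and MRPS18C of 0.884 (0.771 to 1.01). For MRPL52 the values of BD animals ran from 277 over 300 to 633, and the highest came from BD replicate 1, the shallowest library. The direction was not stable. Without the 3 shallowest libraries 55 of 69 members lay below 1-fold and the median was -0.07, without LD replicate 1 it was -0.03, and without BD replicate 1 -0.02. With the length trend removed 28 lay below and the median was 0.03, against 44.0% and 0.02 for all genes. In that fit 3 members had an unadjusted p under 0.05, 1 lower and 2 higher, against 3.97% of all genes. Over the single libraries left out there were 0 to 2.

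Over the 4 categories coded from LD as 0 to VHD as 3, 58 of 69 members had a negative slope (48.9% of all genes), with a median of -0.03 log2 per step. By limma 0 members passed the threshold (0.0% of all genes), as with edgeR and DESeq2, and 4 were lower and 0 higher at an unadjusted p under 0.05 (2.68% and 2.17% of all genes). The fitted fold per step was 0.921 (95% interval 0.873 to 0.971) for MRPS18C, 0.925 (0.878 to 0.975) for MRPL13 and 0.947 (0.902 to 0.994) for MRPL17, each with an adjusted p of 0.950 by limma. Without HD replicate 1 the median slope was -0.02, with 46 of 69 below 0. With the length trend removed it was -0.02, with 52 below 0, against -0.0034 and 52.6% for all genes. The 4 members at an unadjusted p under 0.05 became 13 without LD replicate 1, 7 without LD replicate 5 or HD replicate 7, and 11 with marker scores. The share of all genes at that level was 4.85% in the main fit and 6.61% with marker scores.

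The cohorts, which differ in age, gave no member past the threshold. The limma F test with category as a term called 0 members (0.0% of all genes) and had 0 at an unadjusted p under 0.05, where 9.41% of all genes had one. edgeR and DESeq2 called 0 members, with 1 and 2 at an unadjusted p under 0.05, against 10.3% and 12.8% of all genes. By limma 7 members were at that level without the 3 shallowest libraries, and 2 with the length trend removed, with marker scores as covariates, or without LD replicate 1, HD replicate 1 or VHD replicate 4. Of all genes 10.9% were at that level without the 3 shallowest libraries and 9.98% with the length trend removed. With marker scores the share was 12.7%, and without HD replicate 1 it was 6.6%. The smallest adjusted p was 0.547, for MRPS33, which had 705 ± 95.3, 668 ± 54.5, 606 ± 73.1 and 675 ± 22.7 normalized reads in cohorts 4, 5, 7a and 7b (SD; n = 8, 7, 8 and 5). MRPS22, a small subunit protein found only in mitochondria, had 872 ± 131, 774 ± 109, 814 ± 69.5 and 712 ± 44.5. MRPL3, MRPL46, MRPL10 and MRPS24 came next, with adjusted p-values of 0.585 to 0.690 by limma.

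Exon by exon, 349 of the 361 exons listed for members could be tested in heavy against low drinkers. Of these, 248 lay below 1-fold, against 43.9% of all exons tested, with a median log2 fold of -0.09, and limma called 0 of them (0.0% of all exons). At an unadjusted p under 0.05 there were 29, of which 28 were lower and 1 higher, against 1.66% and 2.28% of all exons. All tested exons lay below 1-fold in 31 member genes and above it in 1. The same counts over all genes are not given, so these have no comparison. Some of the 31, such as MRPL36 and MRPL14, had only 1 or 2 tested exons, and exons of 1 gene are not separate observations. Relative exon use was tested by limma's diffSplice in the 61 member genes with at least 3 tested exons. The F test called 0 of them (0.0917% of all genes), with 0 at an unadjusted p under 0.05 (1.73% of all genes). Simes' test called 0 with 1 at that level. The share of all genes by Simes' test is not given, so that 1 has no comparison. The smallest p-values belonged to MRPS18A (0.117), MRPL48 (0.140) and MRPS35 (0.161), each with an adjusted p of 1.0.

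The rest of the mitochondrial translation pathway was described with lists of the same kind, none with a gene past the threshold in heavy against low drinkers by limma. Of mitoribosomal proteins under other symbols, 6 of 7 lay below 1-fold with a median log2 fold of -0.12. AURKAIP1, a small subunit protein also known as mS38, had a fitted fold of 0.739 (95% interval 0.569 to 0.959), CHCHD1 of 0.876 and MRP63, an older symbol of MRPL57, of 0.907. AURKAIP1 alone of the 7 had an unadjusted p under 0.05.

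Of 17 genes of ribosome assembly and ribosomal RNA modification, 15 lay below 1-fold with a median of -0.06. The 3 with the smallest p were MTERFD1, a mitochondrial transcription termination factor family member needed for ribosome assembly, at 0.826-fold (0.715 to 0.954), the GTPase MTG1 at 0.822-fold (0.703 to 0.961) and MALSU1, which acts on the large subunit, at 0.867-fold (0.761 to 0.986). Each had an adjusted p of 0.998. In VHD against LD animals their fitted folds were 0.746, 0.798 and 0.821.

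Factors that work with the finished ribosome lay on both sides of 1. Of 10 translation factors 6 lay below 1-fold (median -0.02), among them the elongation factor TUFM at 0.918-fold (0.821 to 1.03) and the messenger RNA stabiliser SLIRP at 0.894-fold (0.764 to 1.05), while GFM1, a translocase, stood at 1.07-fold (0.974 to 1.18). Of 10 genes for the expression of mitochondrial DNA 5 lay below (median -0.02), with the polymerase POLRMT at 0.922-fold, the packaging factor TFAM at 0.933-fold and the poly(A) polymerase MTPAP at 1.08-fold. In VHD against LD animals 8 of the latter 10 lay below (median -0.11), and 6 of the 10 translation factors (median -0.08).

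Nuclear partners of the respiratory chain and the cytosolic ribosome were set beside them. Of 29 nuclear subunits of oxidative phosphorylation 26 lay below 1-fold (median -0.11), with NDUFV1 of complex I at 0.857-fold (0.739 to 0.994) and ATP5G1 of the ATP synthase at 0.839-fold (0.707 to 0.996). The median difference of this list was -0.35 in cohort 4, where HD replicate 1 is the heavy animal, -0.02 in cohort 7a and -0.13 in cohort 7b, and NDUFV1 differed by -0.0020 in cohort 7a. Of 75 cytosolic ribosomal proteins 70 lay below (median -0.12), and their median difference was -0.27 in cohort 4, -0.13 in cohort 7a and 0.06 in cohort 7b. In BD against LD animals 7 of these 75 lay below 1-fold and the median was 0.13, against 0.03 for the members.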

How the data were processed

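Gene values as deposited by the authors are a signal, reads over exons scaled by 1 upper-quartile factor per library, and exon values as deposited are a score, the same quantity rounded. Both are called normalized reads. CASAVA, FastQC, STAR 2.3.0e and edgeR are named in the submitters' processing notes, without order. The genome build is not given in the sources used here, nor is the annotation. Libraries were stranded and depleted of ribosomal RNA, per the labels' protocols, but whether counting used strand is not given. Of the columns, 28 were used in both tables and 2 were not.

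All genes reaching 10 in at least 5 libraries were fitted on log2(value + 1) with limma 3.58.1 (R 4.3.3, mean-variance trend), so folds of low genes are understated. Cohort was a term, and category was a term for cohorts. Tests were two-sided, with Benjamini-Hochberg adjustment over all features and a threshold of 0.05. In every library 100% of gene values lay within 0.02 of whole reads, and these reads served edgeR 4.0.16 (quasi-likelihood test) and, as another alternative, DESeq2 1.42.0. Scripts were tested on simulated data.

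Members, lists and tests were chosen with earlier results of these data known. Named are MRPL13, the MRPS18 family, the 6 highest and 4 lowest members per kilobase, the 4 with most and 4 with least spread, and those with the smallest p: 6 per direction for heavy against low, 4 per direction for VHD against LD, 3 for HD, BD, the trend and exon use, 6 for cohorts, and 3 in each other list. An item that this rule takes is not reported here. MRPL40 and MRPS5 were named after their values were seen. Replicate numbers follow the order of deposit. Of the member symbols 68 were found in the reference lists.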

Additional observations from a re-analysis of the deposited data

Results flagged for a closer look

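Single animals stood apart from their drinking category for 7 of the 140 combinations of a named member and a category, and for 0 of the 4 categories in the mean deviation of all members, judged by the gap to the nearest other animal relative to the whole range. Chance alone gives about 1 in 20, about the share seen here. MRPL41 and MRPL52, both flagged, were named for their wide spread. Members also moved together across libraries, so the 7 are not separate observations. All 7 came from 4 libraries of cohort 4. BD replicate 1, the shallowest library, had 866 normalized reads of MRPL51 (609 to 659 in the other BD animals), 633 of MRPL52 (277 to 369) and 1539 of MRPS21 (911 to 1030). LD replicate 3, the deepest library, had 1086 of MRPL3 (807 to 920 in the other LD animals) and 883 of MRPS33 (586 to 743). LD replicate 1 had 368 of MRPS18B (565 to 707), and HD replicate 1 had 144 of MRPL41 (216 to 269 in the other HD animals). The part of depth in these values was not tested.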

How the results depend on the processing

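The number of members called stayed at 0 in the 6 gene comparisons under the alternatives run. These were pseudocounts of 0.5 and 8, no filter or a filter of 50, median-of-ratios scaling, edgeR, DESeq2 and removal of the length trend. They also included marker scores and leaving out the 3 shallowest libraries or each library in turn. Except for the cohorts, they included no cohort term and age in place of cohort. Exon use was retested only with pseudocounts of 0.5 and 8, a filter of 50 and Simes' test. It was also retested without the 3 shallowest libraries and without a cohort term. Members called stayed at 0 in each of these exon fits. Cohort 7a alone was fitted for heavy against low and VHD against LD only, also with 0 members called. Over the single libraries left out, the members' median log2 fold ran from -0.14 to -0.05 for heavy against low and from -0.12 to -0.06 for VHD against LD. Of the values for named members, 4 turned sign: MRPL1 (-0.031) and MRPL15 (-0.094) in VHD against LD with marker scores, and MRPL50 in heavy against low without a cohort term (-0.038) and with age in its place (-0.032). The cause was not tested. For MRPL13 in heavy against low the log2 fold ran from -0.31 to -0.22 over the alternatives and from -0.33 to -0.27 over the libraries left out. No paired analysis was possible because replicate numbers follow the order of deposit and pair no animals. Depth limits MRPS24 most, at 9.21 normalized reads.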
